A study of Mus musculus with 4 samples.

Results

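Retinoid pathway genes were followed through the adult and developing mouse prostate: the retinaldehyde dehydrogenases Aldh1a1, Aldh1a2 and Aldh1a3, the retinol dehydrogenase Rdh10, the cellular retinoic acid-binding proteins Crabp1 and Crabp2, and the retinoic acid receptors Rarb and Rarg. They are 8 of the 31053 genes in each count matrix and were chosen by name, as genes that make, bind or sense retinoic acid. The choice was made with earlier results of these data known. Another 42 genes of the pathway were listed to give them a setting, from uptake and storage of retinol to breakdown of retinoic acid, so that 50 retinoid genes were followed in all.

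Retinoic acid is made from vitamin A in a pair of oxidations. RDH10 and related enzymes turn retinol into retinaldehyde, and the ALDH1A enzymes turn retinaldehyde into retinoic acid. CRABP1 and CRABP2 carry retinoic acid in the cytoplasm, the CYP26 enzymes degrade it, and the receptors RARA, RARB and RARG, paired with RXRA, RXRB or RXRG, bind DNA and switch target genes. In the urogenital tract retinoic acid is known as a signal of budding and epithelial differentiation, and ALDH1A1 activity is widely used to enrich progenitor-like cells of the prostate.

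The study profiled single cells of P2-Runx1:RFP mice of the ICR (CD-1) strain, in which red fluorescent protein (RFP) reports the proximal promoter P2 of Runx1. In all 3 adult runs, EPCAM+ cells of pooled males over 8 weeks old were sorted into RFP+ and RFP- gates for the ventral prostate (VP), the anterior prostate (AP) and the dorsolateral prostate (DLP), from intact mice in every run and from mice castrated over 4 weeks earlier in runs 1 and 2. The remaining library held EPCAM+ cells of explants of the E15.5 urogenital sinus (UGS), the embryonic tissue from which the prostate buds, cultured with 10 uM dihydrotestosterone and collected on days 0, 1, 3 and 6. Each gate, treatment and day carried its own lipid-tagged barcode, and all adult mice, intact or castrated, carried the reporter. The explants, also of ICR (CD-1) mice, were pooled within a day, and the labels name no reporter for them. A pool of animals is 1 sample per run. DLP RFP+ cells of intact mice came from run 3 only, and in run 1 all lobes of castrated mice were pooled.

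The 4 libraries held 35051876 to 121090404 unique molecular identifiers (UMIs, each standing for 1 captured mRNA molecule) and shared 0 to 2 cell barcodes with each other. After filtering, 9889 cells carried a single barcode, with a median of 9750 to 14784.5 UMIs per cell. The upper limit of 7500 for adult cells is printed as UMIs in the methods of the study and was applied here to genes, since only 197 of 824, 704 of 2194 and 444 of 1673 adult cells had fewer UMIs. The printed limit was run as an alternative. Adult epithelial cells numbered 4089, of which 2063 were in basal-like clusters (Krt5, Krt14, Trp63) and 2026 in luminal-like clusters (Krt8, Krt18, Cldn3), hereafter basal and luminal. The retinoid genes took no part in the clustering. Runx1 followed the sort in the AP, where luminal RFP+ cells were at 98.08, 147.8 and 118.5 CPM (UMI counts scaled to a total of 1e6) in runs 1, 2 and 3 and RFP- cells at 19.85, 19.13 and 6.917, and by a smaller margin in the VP, with 17.05, 15.84 and 20.83 against 10.82, 8.4 and 4.08. Runx1 mRNA was therefore low in VP luminal cells of either gate.

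UMIs were summed per run, lobe, gate and compartment, which gave 31 sums of intact mice with 10 to 325 cells and 273950 to 8714292 UMIs each. Values are CPM of these sums, listed by run in the order 1, 2 and 3 unless stated. CPM compares a gene between cell populations and does not rank genes by abundance. As a share of all UMIs of a sum, it is lower where a few other transcripts are very abundant. Sort gates and lobes were compared with edgeR's quasi-likelihood test over the 11664 genes that passed the filter on low counts, with Benjamini-Hochberg adjusted p-values and a threshold of 0.05. All the genes except Crabp2 passed that filter. Replicates were separate pools of mice, and a lower sum cannot tell fewer expressing cells from fewer molecules per cell.

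**Figure D1:**
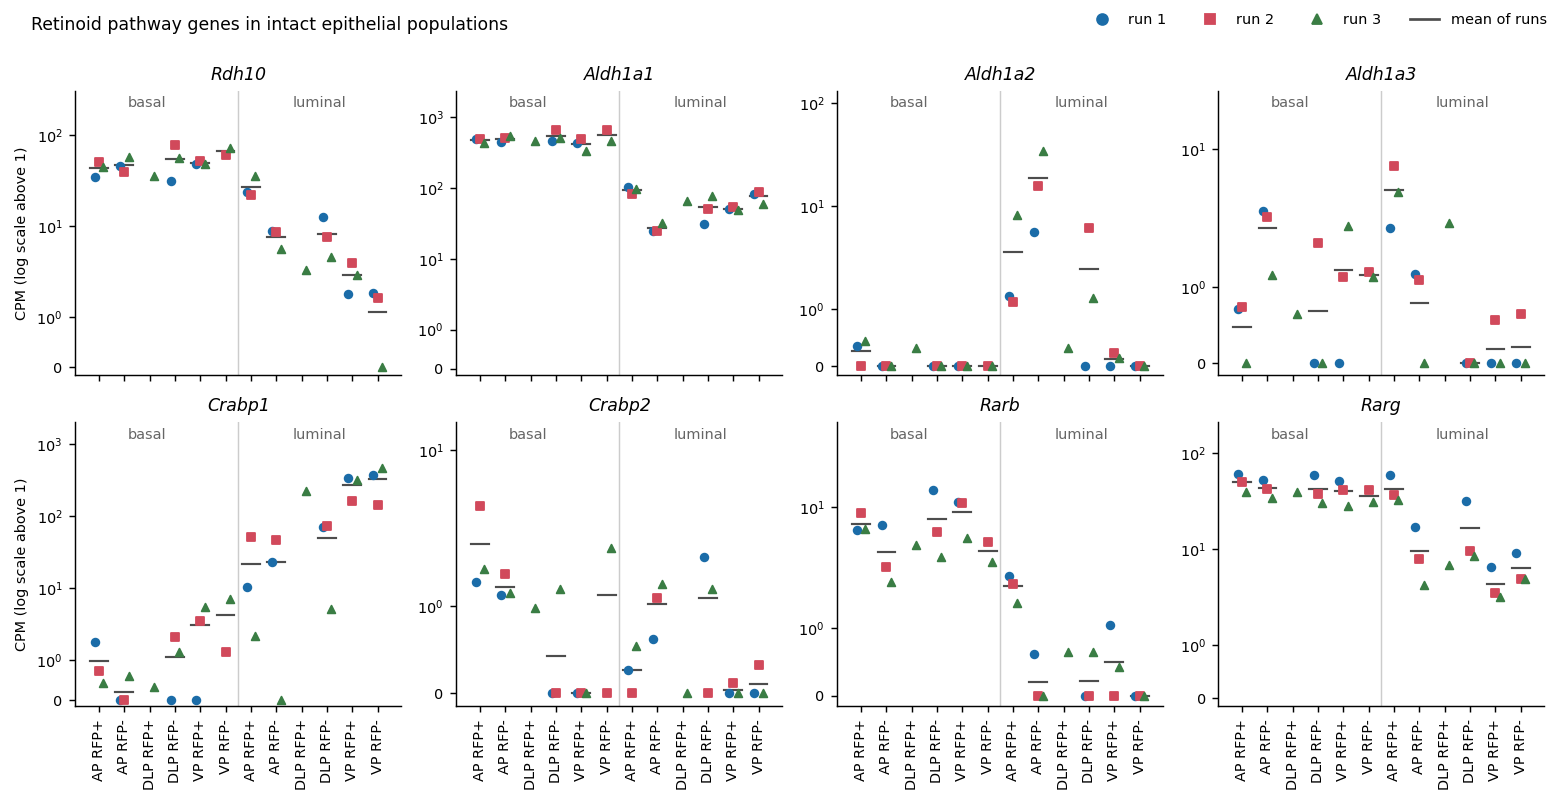
CPM (log scale above 1, linear below) of the 8 retinoid genes in intact mice, by lobe and RFP gate, in basal (left of the grey line) and luminal cells (right). Each point is 1 run and the bar is the mean of runs. Aldh1a1, Rdh10, Rarb and Rarg lie high in basal cells of every lobe, with Aldh1a1 between 333.9 and 669.7 CPM, whereas Crabp1 lies at 145.1 CPM or more only in VP luminal cells and in the DLP RFP+ luminal sum.

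Basal cells of all lobes held a common set of retinoid transcripts. Aldh1a1 (ENSMUSG00000053279, chr19:20492715-20643465, plus strand, GRCm38) ranged from 333.9 to 669.7 CPM over the 15 basal sums, with a median of 489.2, and from 24.81 to 103.2 over the 16 luminal sums, with a median of 57.5. Every basal sum was thus above every luminal sum, which was the case for 5.86% of the tested genes, and for 1.5% in the opposite direction. Aldh1a1 was the only gene of the 8 with no overlap over all sums. Compartments are clusters of the same cells, so these differences are given as a description and were not tested.

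Rdh10 (ENSMUSG00000025921, chr1:16105774-16133734, plus strand) ranged from 30.85 to 76.72 CPM in basal sums and from 0 to 35.34 in luminal sums. Rarg (ENSMUSG00000001288, chr15:102234938-102257517, minus strand), a receptor known from stratified epithelia, ranged from 27.82 to 60.53 and from 3.182 to 58.74. Rarb (ENSMUSG00000017491, chr14:16430839-16819156, minus strand), a receptor gene that is itself a target of retinoic acid, was scarce at 2.43 to 13.71 CPM in basal and 0 to 2.695 in luminal sums. For these genes luminal AP RFP+ sums reached into the basal range, and among the other luminal sums only DLP RFP- of run 1 did, for Rarg (31.29).

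The promoter of Rarb holds the classical retinoic acid response element, a direct repeat of hexamers 5 bases apart, and the stretch that holds it is printed beside that of the other pathway gene with such a repeat. The hexamer AGGTCA was searched on both strands together with the known variant AGTTCA, the further variant GGGTCA and, last, the variant GGTTCA, each followed after 5 bases by any of the same hexamers. The search covered 250 bases before to 50 bases after each start (RefSeq, GRCm38.p6) and found a repeat in 32 of 32851 promoters (0.0974%). Promoters were listed for 5 of the 8 genes, and 1 of their 7 held a match. Among the 47 promoters of 33 other pathway genes 1 matched, that of Cyp26a1. The 100 bases before the start of each are given 5′ to 3′ on the strand of the gene, with the hexamers in capitals.
Rarb, chr14:16575477-16575576, minus strand: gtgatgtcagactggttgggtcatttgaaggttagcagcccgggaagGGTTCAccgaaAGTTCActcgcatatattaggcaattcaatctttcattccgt
Cyp26a1, chr19:37697708-37697807, plus strand: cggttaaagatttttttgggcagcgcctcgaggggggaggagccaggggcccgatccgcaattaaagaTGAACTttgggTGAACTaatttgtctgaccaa

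The Rarb element lies 53 to 37 bases before the start (chr14:16575513-16575529), and that of Cyp26a1, read on the opposite strand, 32 to 16 bases before (chr19:37697776-37697792). A match describes letters only and is no evidence of binding. The genes did not share a pattern, since Rarb was at 5.457 to 26.93 CPM in prostatic cells of the explants, depending on the day, and Cyp26a1 at no more than 0.1678.

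Within a gate and lobe, where basal and luminal cells of the same runs can be set side by side, runs did not overlap for Aldh1a1 and Rarb in any of the 4 gates with every run, both higher in basal cells. In AP RFP+ cells Aldh1a1, Crabp2 and Rarb were higher in basal and Aldh1a2, Aldh1a3 and Crabp1 in luminal cells (background over all tested genes 19.9% and 17.8%). In AP RFP- cells Aldh1a1, Rdh10, Rarb and Rarg were higher in basal and Aldh1a2 in luminal cells (27.6% and 17.7%). In DLP RFP- cells the basal genes were Aldh1a1, Rdh10 and Rarb and the luminal gene Crabp1 (25.1% and 15.3%), and in VP RFP+ cells they were Aldh1a1, Rdh10, Rarb and Rarg against Crabp1 (50.7% and 7.65%). The 4 of 8 genes higher in VP RFP+ basal cells are thus near the background of that gate.

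Of the other 42 pathway genes, 23 passed the filter on low counts. In AP RFP+, AP RFP-, DLP RFP- and VP RFP+ cells, 8, 11, 8 and 14 of the 42 were higher in basal cells without overlap. The shares of all tested genes were 19.9%, 27.6%, 25.1% and 50.7%. In luminal cells 7, 4, 1 and 3 were higher, beside 17.8%, 17.7%, 15.3% and 7.65%. The counts include genes below the filter and the shares do not. Tgm2, a transglutaminase induced by retinoic acid, ranged from 114.6 to 522.0 CPM in basal and from 0 to 47.16 in luminal sums. Aldh1a7, a close paralogue of Aldh1a1 with which reads may be shared, ranged from 119.6 to 275.9 and from 2.767 to 73.56, and its log2(CPM + 1) followed that of Aldh1a1 over the 31 sums with a Pearson r of 0.94. Cyp26a1, which degrades retinoic acid, was at 0 in every basal sum and at most 0.6203 CPM in luminal sums.

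The cells that held Aldh1a1 were most basal cells, not a few rich ones. At least 1 Aldh1a1 UMI was found in 95.02%, 91.64% and 93.53% of basal cells, and in 74.28%, 75.48% and 71.56% when every cell was thinned to 3000 UMIs, leaving out shallower cells. In the luminal clusters that resembled Lum-B, the shares were 15.79%, 11.36% and 10.71% (thinned 7.165%, 5.46% and 4.82%), at a higher median depth (20582.5, 20378.0 and 10635.0 UMIs per cell, against 10574.0, 8314.0 and 8915.0 in basal cells). Among the non-epithelial cells, fibroblast-like cells also carried it, at 343.4, 468.1 and 130.1 CPM, as did endothelial-like cells, at 313.1 CPM in run 1 (280 UMIs in 59 cells) and 492.2 in run 3 (55 UMIs in 11 cells).

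Within the AP luminal compartment, RFP+ cells held more transcripts of Aldh1a1 and Rdh10, enzymes on the path from retinol to retinoic acid, and of the receptor Rarg than RFP- cells. Aldh1a1 stood at 103.2, 81.49 and 96.79 CPM in RFP+ (mean 93.83 ± 11.15 SD, n = 3) and at 24.81, 25.04 and 31.82 in RFP- cells (27.22 ± 3.982). Rdh10 stood at 23.44, 21.54 and 35.34 against 8.685, 8.44 and 5.533. Rarg stood at 58.74, 36.09 and 32.08 against 16.75, 7.877 and 4.15. No RFP+ run of any of these genes came down to the level of an RFP- run. The log2 differences were 1.73 (SE 0.27, adjusted p = 5e-05, edgeR) for Aldh1a1, 1.64 (SE 0.36, adjusted p = 0.00157) for Rdh10 and 1.99 (SE 0.30, adjusted p = 3.55e-05) for Rarg, or 3.31-, 3.12- and 3.98-fold. The calls of Aldh1a1 and Rarg held in all 13 alternatives run, and that of Rdh10 was lost without run 2 or run 3 (adjusted p up to 0.07706). Rdh10 had no test under the upper limit of 7500 UMIs.

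Rarb and Aldh1a2 also passed the threshold, on few molecules. Rarb was counted with 10, 4 and 3 UMIs in RFP+ and 1, 0 and 0 in RFP- cells, a ratio of 13.77 in CPM with a 95% counting interval from 2.158 to 575.7 and an adjusted p of 0.0269 in edgeR. Aldh1a2 (ENSMUSG00000013584, chr9:71215789-71296243, plus strand) went the other way, with 1.347, 1.164 and 8.156 CPM in RFP+ against 5.583, 15.75 and 34.58 in RFP- cells, a log2 difference of -2.46 (SE 0.81, adjusted p = 0.0408). The run 3 RFP+ value lay above the run 1 RFP- value, so the groups overlap, but within each run the RFP- sum was the higher. Rarb lost the call when any run was left out (adjusted p up to 0.3208), and Aldh1a2 lost it without run 2 or run 3 (up to 0.2715). With DESeq2 neither was called (adjusted p = 0.05604 for Rarb and 0.1431 for Aldh1a2). With only the compared populations in the fit Aldh1a2 was at an adjusted p of 0.05039 and Rarb had no test, and under the UMI limit neither had one.

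Aldh1a3 (ENSMUSG00000015134, chr7:66390890-66427517, minus strand) was at 2.695, 7.567 and 4.894 CPM in AP luminal RFP+ and at 1.241, 1.125 and 0 in RFP- cells, without overlap, but did not pass (log2 difference 2.17, SE 0.82, adjusted p = 0.0658). Crabp1 (ENSMUSG00000032291, chr9:54764748-54773110, plus strand) ranged from 2.175 to 51.8 in RFP+ and from 0 to 46.98 in RFP- cells and did not pass either (log2 difference -0.40, SE 0.80). Altogether 4 of the 7 tested genes were higher and 1 was lower in AP luminal RFP+ cells, while 20% of all tested genes were called in this comparison. The median log2 difference was 1.73 over the 7 genes and 0.09 over all genes.

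Of the 42 other pathway genes 23 could be tested, of which 7 were higher and 1 was lower in AP luminal RFP+ cells. Higher were the retinol uptake gene Stra6 (log2 difference 2.18), the retinol dehydrogenase Adh1 (1.35), the retinaldehyde reductase Dhrs3 (1.5) and the receptor partner Rxra (1.35). So were the retinoic acid-induced genes Tgm2 (2.23) and Gprc5a (2.85), and Aldh1a7 (2.54, adjusted p = 4.92e-06, edgeR). Fabp5, a carrier that delivers retinoic acid to another nuclear receptor, was lower, with a mean of 46.12 ± 5.667 CPM against 166.1 ± 25.36 (log2 difference -1.92). The calls of Aldh1a7 and Fabp5 held in all 13 alternatives run. Those of Stra6 and Adh1 were lost without run 2 or run 3, that of Adh1 also under the UMI limit. Dhrs3 lost the call without run 1 or run 3, Rxra without run 1 or run 2, and Gprc5a without run 2. Tgm2 lost it under the UMI limit. These 8 calls among 23 genes stand beside 2330 among all 11664 tested genes. The median log2 difference was 0.11 over the 23 genes and 0.09 over all genes. The genes called higher have known roles from uptake to response, but a change of the pathway as a whole was not tested.

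The sum of basal markers was higher in AP luminal RFP+ cells as well. Summed over 6 basal markers (Krt5, Krt14, Krt15, Krt17, Trp63 and Col17a1), AP luminal RFP+ cells were at 2929.3, 1722.3 and 1137.0 CPM and RFP- cells at 934.2, 456.9 and 282.2, all 6 markers being detected in each sum. Set against the basal sum of the same run and gate, the markers stood at 23.95%, 16.75% and 11.5% in RFP+ and 7.206%, 4.399% and 3.047% in RFP- luminal cells. Aldh1a1 stood at 21.1%, 16.51% and 22.21% of its basal level in RFP+ and at 5.531%, 5.007% and 5.793% in RFP- luminal cells, shares of the same size as those of the markers in runs 1 and 2. Rdh10 stood at 67.88%, 43.06% and 79.66% of its basal level in RFP+ luminal cells and Rarg at 97.05%, 72.16% and 81.04%, above the share of the markers in every run. Most AP luminal RFP+ cells were in the cluster that resembled Lum-D (Psca, Krt4). With the retinoid genes kept in the clustering, Krt15 was among the 10 leading genes of that cluster. A Krt5 UMI was found in 5.3% of its cells and in 9.69% of the deeper cells that resembled Lum-B, over all lobes and treatments. The markers were not compared singly, and the part of basal transcripts in the result for Aldh1a1 was not tested.

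**Figure D2:**
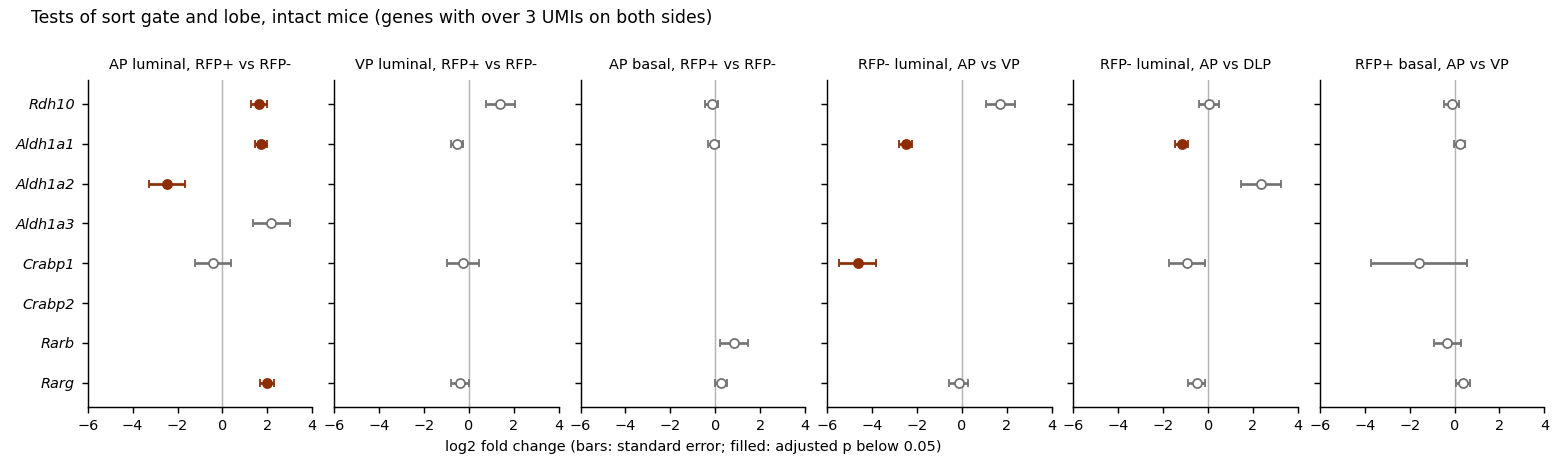
Log2 fold changes with their standard errors for the tested sort gates and lobes of intact mice, for genes with more than 3 UMIs on both sides. Rarb in the AP luminal comparison and Aldh1a2 in AP against VP, both called, are therefore not drawn. Filled points passed an adjusted p of 0.05 in edgeR. Rdh10, Aldh1a1 and Rarg are higher and Aldh1a2 lower in AP luminal RFP+ cells, and no gene passes in the VP luminal or the basal comparisons.

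In VP luminal cells none of the 7 genes differed between the gates at this threshold. Aldh1a1 was at 50.09, 54.62 and 48.16 CPM in RFP+ and at 82.95, 87.23 and 60.38 in RFP- cells, the opposite order to the AP and without overlap (log2 difference -0.52, SE 0.25, adjusted p = 0.779). The basal markers summed to 145.3, 25.82 and 30.95 CPM in RFP+ and 259.7, 239.1 and 10.61 in RFP- cells. Rarg was at 6.394, 3.443 and 3.182 against 9.016, 4.846 and 4.895 (log2 difference -0.39, SE 0.40). The edgeR count of 0 of 7 compares with 0.334% of all genes called (39), 1 of the 7 (Rdh10) had an unadjusted p below 0.05, and DESeq2 also called 0 of them. Among the other pathway genes Stra6 was lower in VP RFP+ cells (log2 difference -4.12, adjusted p = 0.0124, edgeR). It was counted with 0, 5 and 0 UMIs in RFP+ and 3, 16 and 7 in RFP- cells. The call was lost when any run was left out and with only the compared populations in the fit (adjusted p up to 0.3341, edgeR). The median log2 difference was -0.265 over the 7 genes and 0.05 over all genes.

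The effect of the gate itself differed between AP and VP for Aldh1a1 and Rarg. The difference of the log2 effects was 2.25 (SE 0.37, adjusted p = 8.72e-04, edgeR) for Aldh1a1 and 2.38 (SE 0.52, adjusted p = 0.00837) for Rarg, so 2 of the 7 genes were called against 3.46% of all genes. For Rdh10 it was 0.24 (SE 0.88, adjusted p = 0.9767), and the medians were 0.24 over the 7 genes and 0.03 over all genes. Without run 2 neither call held (adjusted p = 0.1964 for Aldh1a1 and up to 0.3449 for Rarg), and Rarg also lost it without run 3. The AP and VP comparisons share no sums.

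In AP basal cells no difference between the gates passed the test. Aldh1a1 was at 489.2, 493.5 and 435.9 CPM against 448.6, 500.0 and 549.2 (log2 difference -0.07, SE 0.24), and Rarg at a mean of 50.04 ± 10.47 against 42.73 ± 9.205. The gates overlapped for these genes, and edgeR called 0 of the 7, 0 of them at an unadjusted p below 0.05, with 0% of all 11664 genes called (210 at an unadjusted p below 0.05, 1 by DESeq2). The median log2 difference was 0.26 over the 7 genes and 0.03 over all genes. Between RFP+ basal cells of AP and VP, 0 of 7 genes were called by edgeR or DESeq2, 0 at an unadjusted p below 0.05, against 0.309% of all genes, with medians of -0.14 and 0.10. Crabp2 (ENSMUSG00000004885, chr3:87948666-87953376, plus strand), too low to be tested, had 14 UMIs in the 3 AP RFP+ basal sums and 0 in those of the VP, at least 1.07-fold higher in the AP against a floor of 3 UMIs over the group.

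Among RFP- luminal cells, the AP held less Aldh1a1 and Crabp1 and more Aldh1a2 than the VP. Aldh1a1 was at 24.81, 25.04 and 31.82 CPM in the AP and at 82.95, 87.23 and 60.38 in the VP (log2 difference -2.50, SE 0.28, adjusted p = 6.7e-07). Crabp1 was at 22.95, 46.98 and 0 in the AP and at 378.7, 145.1 and 470.8 in the VP (log2 difference -4.64, SE 0.83, adjusted p = 3.03e-04). Aldh1a2 was found with 9, 56 and 25 UMIs in the AP and 0 in each VP run, at least 24.83-fold higher in the AP against a floor of 3 UMIs over the VP sums (adjusted p = 0.00863). The runs did not overlap for any of these, and with 1 of 7 genes higher and 2 lower the calls stand beside 13.4% of all genes, with medians of 0.33 over the 7 genes and 0.02 over all genes.

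The call of Aldh1a2 in the AP was lost without run 2 or run 3 (adjusted p up to 0.1554), and those of Aldh1a1 and Crabp1 held in all 12 alternatives run. Other pathway genes called were Rdh11 and Rdh12, higher in the AP, and Rxrg, Akr1b8, Dhrs4 and Aldh1a7, higher in the VP. Of these, only Akr1b8 held in all 12 alternatives run. The call was lost in 8 of 11 alternatives for Rdh12 (13 UMIs in the AP against 0) and in 5 of 11 for Rdh11. It was lost in 6 of 12 for Dhrs4, 3 of 12 for Rxrg and 1 of 12 for Aldh1a7. Rxrg, a receptor partner of narrow distribution, was at 1.594 ± 2.761 CPM in AP and 10.97 ± 0.4007 in VP RFP- luminal cells.

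The AP RFP- luminal sums enter the gate comparison of the AP and both lobe comparisons, which therefore are not independent. In the DLP, RFP- luminal cells had 31.29, 51.31 and 78.07 CPM of Aldh1a1, above the AP (log2 difference, AP minus DLP, -1.18, SE 0.28, adjusted p = 0.0241), the 1 call among 7 genes against 1.24% of all genes. The medians were -0.51 over the 7 genes and -0.003 over all genes. The call of Aldh1a1 was lost without run 2 (adjusted p = 0.6699), without run 3 (0.599) and in 3 other alternatives. Aldh1a2 was at 0, 6.076 and 1.29 CPM in the DLP and did not pass (AP minus DLP 2.37, SE 0.89, adjusted p = 0.3278), but was called when the run entered as a block, which made 2 calls of 7, and with no filter on low counts. Crabp1 was at 70.92, 72.24 and 5.162 CPM in the DLP RFP- sums and at 227.5 (706 UMIs) in the DLP RFP+ sum of run 3, which has no replicate.

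Markers of blood cells were checked beside Aldh1a2, since hematopoietic cells held it as well (99.41, 21.74 and 3.821 CPM). The 7 markers summed to 104.2, 116.8 and 127.3 CPM in AP RFP- luminal cells, to 142.8, 260.2 and 79.93 in AP RFP+ luminal cells to 7.213, 10.34 and 0.8159 in VP RFP- luminal cells. Cd74 held 12, 27 and 0 UMIs in the AP RFP- sums and 1, 25 and 0 in the VP RFP- sums. The other 6 markers held 156, 388 and 92 UMIs in the AP and 3, 7 and 1 in the VP. Of these, Ptprc, Laptm5 and Cd3d were at 0 in all 6 RFP- sums. In the AP RFP- sum of run 3, where Aldh1a2 was highest, only Cd52 of the 7 markers was detected, with the 92 UMIs. Cd52 is not limited to blood cells here. It was among the 10 leading genes of the adult mesonephric-like cluster, where 100% of cells had an Epcam UMI and 0% a Ptprc UMI. The part of blood cells in the Aldh1a2 values was not tested.

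Luminal cells fall into the groups that the study named Lum-A to Lum-F, and the retinoid genes were unequally spread over them. The groups were found again here from the marker lists that the study made on these samples, so their gene content is no independent evidence, and the levels are given with no test. In the AP, RFP+ luminal cells were 84.43%, 78.64% and 87.59% Lum-D-like (Psca, Krt4), and RFP- cells were 88.75%, 81.82% and 93.62% Lum-B-like (Tgm4). VP luminal cells were mostly Lum-A-like (Spink1, Sbp), with 86.27%, 93.44% and 94.52% in RFP+ and 50%, 68.18% and 62.22% in RFP- cells, and Lum-C-like cells (Msmb) made up 30.0%, 30.3% and 33.33% of VP RFP- cells. RFP- luminal cells of the DLP were 60%, 55.22% and 74.32% Lum-B-like. The comparisons of the AP gates and of AP with VP therefore set mostly different luminal groups against each other, whereas both VP gates were mostly Lum-A-like and the RFP- cells of AP and DLP mostly Lum-B-like.

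**Figure D3:**
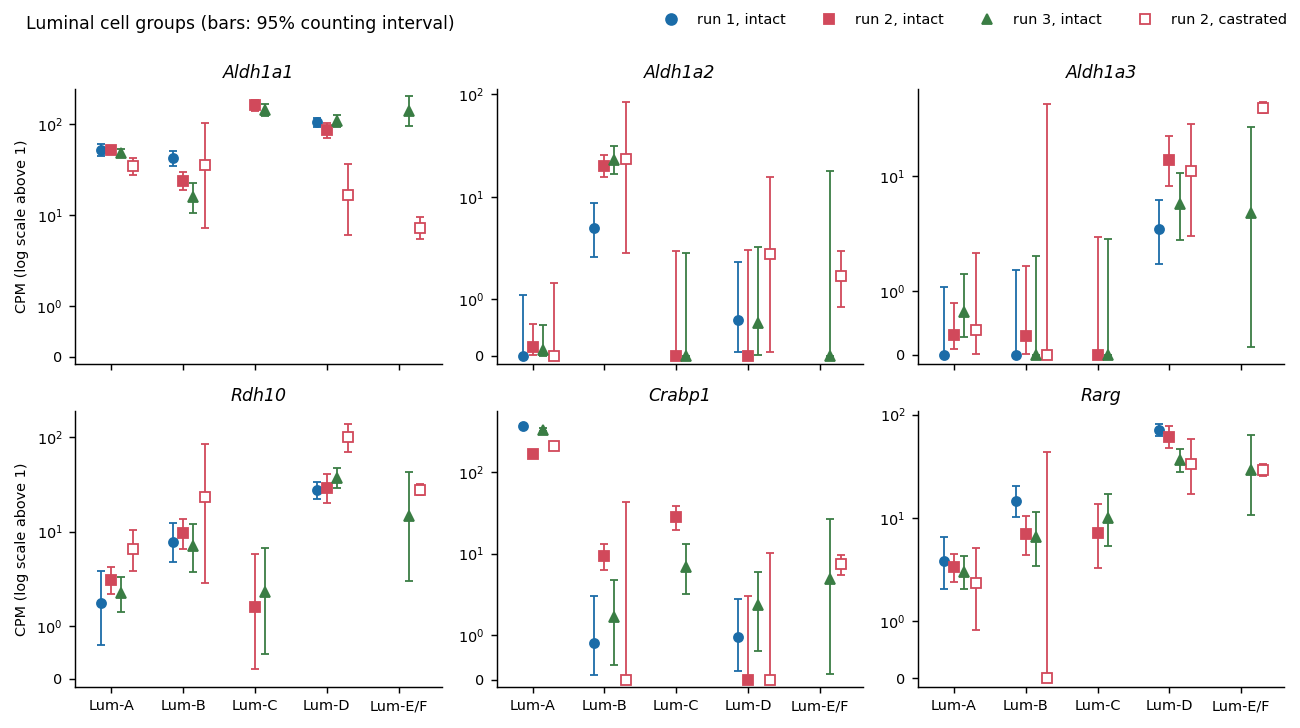
CPM (log scale above 1, linear below) of 6 retinoid genes in luminal groups of at least 10 cells, by run, for intact mice (filled) and castrated mice of run 2 (open), with 95% Poisson counting intervals. Crabp1 is at 170.7 to 370.7 CPM in intact Lum-A-like cells, Aldh1a2 at 4.954 to 22.99 in Lum-B-like cells, and Rarg and Rdh10 are highest in Lum-D-like cells of intact mice.

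Crabp1 marked the Lum-A-like group, at 370.7, 170.7 and 336.8 CPM, against 0.8257, 9.28 and 1.642 in Lum-B-like and 0.9462, 0 and 2.324 in Lum-D-like cells. Nearly all Lum-A-like cells carried it, with a UMI in 94.64%, 90.38% and 90.82% of them, and in 59.99%, 34.81% and 49.72% after thinning. In basal cells the shares were 1.779%, 1.617% and 1.185%, and 0.3234% to 0.4275% after thinning. The Lum-A-like cells were also by far the deepest, with medians of 58271.0, 46309.0 and 47413.0 UMIs.

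Aldh1a2 was a gene of the Lum-B-like cells, at 4.954, 20.06 and 22.99 CPM, with at most 0.6308 in Lum-D-like and 0.1575 in Lum-A-like cells of intact mice. A UMI was found in 7.018%, 22.16% and 12.5% of Lum-B-like cells (thinned 1.596%, 5.126% and 2.593%) and in 0.3559%, 0% and 0.1823% of basal cells. The 5 richest Lum-B-like cells held 9 of 12 UMIs in run 1, 17 of 67 in run 2 and 32 of 42 in run 3.

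Rarg and Rdh10 were highest in Lum-D-like cells, with Rarg at 70.97, 61.14 and 36.02 CPM there, 14.45, 6.885 and 6.57 in Lum-B-like and 3.822, 3.307 and 3.011 in Lum-A-like cells. Rdh10 followed the same order at 27.44, 28.92 and 37.18, then 7.845, 9.58 and 7.117, then 1.764, 3.07 and 2.234. Among the groups of intact mice Aldh1a3 was at 3.469, 14.04 and 5.809 CPM in Lum-D-like cells and, over all gates, at most 0.6798 in Lum-A-, Lum-B- and Lum-C-like cells, the 13 Lum-E/F-like cells of run 3 holding 1 UMI. In the DLP RFP+ gate of run 3 the Lum-A-like cells were at 2.828 CPM (7 UMIs in 39 cells) and the Lum-D-like cells at 9.8 (2 UMIs in 17 cells).

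Aldh1a1 had another order. It was highest in Lum-C-like cells, at 161.4 and 143.5 CPM in runs 2 and 3, with the 13 Lum-E/F-like cells of run 3 close at 140.6, followed by Lum-D-like cells at 104.4, 85.1 and 108.6, Lum-A-like cells at 52.33, 52.12 and 48.56, and Lum-B-like cells at 42.11, 23.95 and 15.88. In AP cells of the Lum-B-like group it also differed by gate, with 103.4 CPM (79 UMIs in 28 cells) and 118.6 CPM (24 UMIs in 10 cells) in RFP+ cells of runs 1 and 2, against 16.01, 17.38 and 25.03 in RFP- cells. The RFP+ values were in the range of Lum-D-like cells of the AP (106.5, 91.3 and 106.3). In the same cells Rarg did not follow, with 14.39 (11 UMIs) and 19.76 CPM (4 UMIs) in RFP+ against 14.55, 6.716 and 4.418 in RFP- cells.

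Crabp1 also appeared in a few cells outside the epithelium. In run 2, 10 of 208 hematopoietic cells of intact mice held 265 UMIs, 176 of them in the 5 richest cells, and in run 3 there were 86 UMIs in 2 of 10 cells, against 0 UMIs in run 1. Crabp1 was abundant in Lum-A-like cells of the same libraries, and doublets and free RNA were not tested as the source of these UMIs.

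The genes whose pattern over the 31 intact sums was most like that of a retinoid gene were sought among 7051 genes by Pearson's r of log2(CPM + 1), as a description only, since the sums share libraries. Aldh1a1 was closest to Pawr (r = 0.969) and Etv4 (0.967), Rdh10 to Qk (0.974) and Top2b (0.966), and Rarg to Cd9 (0.967) and Tnfaip8 (0.966). Crabp1 was closest to Lrrc52 (0.963) and Gucy2g (0.942), and Aldh1a2, more loosely, to C1s2 (0.843) and Rnf149 (0.838). Aldh1a3, Crabp2 and Rarb had no population with a mean of 10 CPM and were left out.

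Castration was profiled lobe by lobe in run 2 only, from 1 pool of castrated and 1 pool of intact mice, so no test was possible. A gene is named as changed there when the CPM differed by at least 2-fold, the sums held at least 20 UMIs together and the 95% Poisson intervals did not overlap. The intervals cover counting error only. Of the 48 pairs of a gene and a population, 23 had enough UMIs, and 10 were past this rule, 4 higher and 6 lower. With an upper limit of 7500 UMIs per adult cell 2 calls were left, those of Aldh1a1 in AP and VP RFP+ basal cells. The median log2 ratio of castrated to intact over the genes with enough UMIs was -0.39 in AP and -0.247 in VP RFP+ basal cells and -0.147, 0.303, 0.103 and 0.022 in luminal cells of AP RFP+, AP RFP-, DLP RFP- and VP RFP+, against -0.273, -0.216, 0.104, -0.223, -0.301 and 0.917 over all genes.

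**Figure D4:**
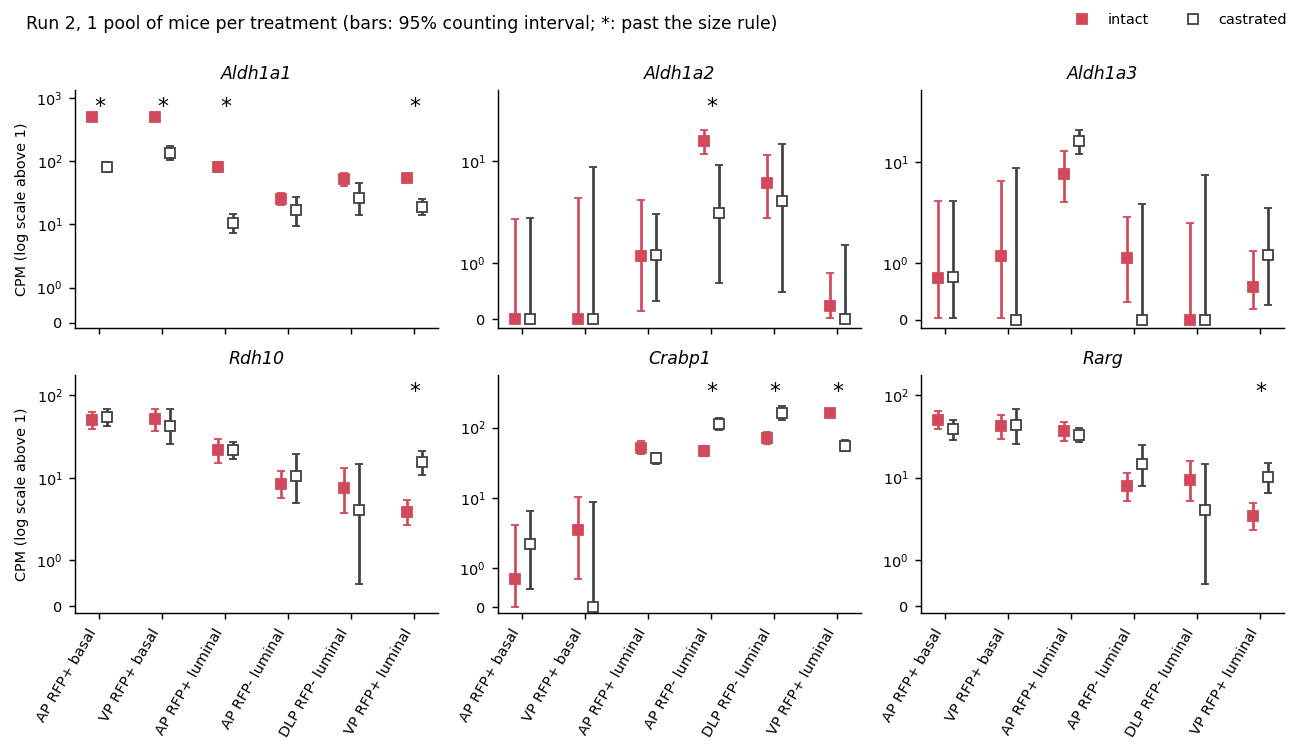
CPM (log scale above 1, linear below) of 6 retinoid genes in intact (filled) and castrated mice (open) of run 2, with 95% Poisson counting intervals, for the 6 populations with at least 10 cells under each treatment. Asterisks mark pairs past the size rule, among them Aldh1a1 in 4 populations, each lower in castrated mice.

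Aldh1a1 was lower in castrated mice in every RFP+ population that could be compared. In AP RFP+ basal cells it was at 493.5 CPM (456.9 to 532.3, 671 UMIs) in intact and 81.59 (67.0 to 98.43, 109 UMIs) in castrated mice, 6.05-fold lower. In VP RFP+ basal cells it was at 496.3 against 136.0, 3.65-fold lower. In AP RFP+ luminal cells it was at 81.49 (140 UMIs) against 10.47 (35 UMIs), 7.78-fold lower, and in VP RFP+ luminal cells at 54.62 (476 UMIs) against 19.09 (47 UMIs), 2.86-fold lower. In RFP- luminal cells it was at 25.04 against 16.67 in the AP and at 51.31 against 26.36 in the DLP, short of the rule. Aldh1a7 was lower in the same 4 RFP+ populations, for example at 179.5 against 15.72 in AP basal cells.

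The lower level of Aldh1a1 in basal cells was the single call among 4 genes with enough UMIs in the AP (all genes 1.06% higher, 6.32% lower) and among 3 in the VP (1.91% and 6.05%). Rdh10 and Rarg, the other main genes of basal cells, were at 50.01 and 50.01 CPM in intact and 54.65 and 38.18 in castrated AP basal cells, with overlapping intervals. In AP RFP+ luminal cells, too, Aldh1a1 was the 1 call of 5 (6.47% and 5.70%), while Rdh10 was at 21.54 in intact and 21.54 in castrated cells and Rarg at 36.09 and 32.6. Aldh1a3 was at 7.567 CPM (4.029 to 12.94) against 16.15 (12.13 to 21.07), 2.13-fold higher with overlapping intervals, and was not past the rule.

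Aldh1a2 was at 15.75 CPM (56 UMIs) in intact and 3.125 (3 UMIs, 0.6444 to 9.132) in castrated AP RFP- luminal cells. In the same cells Crabp1 was at 46.98 (167 UMIs) and 114.6 (110 UMIs), 2.44-fold higher in castrated mice, so that 1 of 5 genes was higher and 1 lower (3.35% and 7.31% of all genes). In DLP RFP- luminal cells Crabp1 was at 72.24 and 162.2 CPM, the 1 call of 2 genes (0.925% and 5.76%). In VP RFP+ luminal cells it was lower in castrated mice, at 55.65 (137 UMIs) against 163.2 (1422 UMIs). The direction of Crabp1 thus differed between populations of the same pools.

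In VP RFP+ luminal cells Rdh10 (3.902 against 15.43 CPM) and Rarg (3.443 against 10.15) were higher and Aldh1a1 and Crabp1 lower in castrated mice, where 38.9% of all genes were higher and 1.52% lower. The median log2 ratio over all genes was 0.917 in this population, and with the 50 genes of most UMIs left out of the total it was -0.085, at which Rdh10 and Rarg were no longer past the rule. Among other pathway genes there, 8 were higher and 1 was lower in castrated mice, with Fabp5 at 80.1 against 1648.7 CPM and Tgm2 at 0.918 against 30.06. The 7 blood cell markers summed to 10.79 CPM in intact and 145.4 in castrated VP RFP+ luminal cells, to 260.2 and 58.03 in AP RFP+ and to 116.8 and 47.91 in AP RFP- luminal cells, and their part in these values was not tested.

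The luminal groups differed with castration, so that most cells compared were of different groups. Lum-E/F-like cells (Basp1, Lpl, Crym) made up 82.54% of castrated AP RFP+, 71.43% of AP RFP-, 71.43% of DLP RFP- and 84.92% of VP RFP+ luminal cells of run 2, and 0 to 1.493% of the intact cells of those gates. In Lum-D-like cells of the AP RFP+ gate, found under either treatment, Aldh1a1 was at 91.3 CPM (72.72 to 113.2, 81 cells) in intact and 17.18 (3.544 to 50.22, 3 UMIs in 17 cells) in castrated mice. The 49 Lum-A-like cells of castrated mice were at 212.5 CPM of Crabp1 and 34.33 of Aldh1a1, and the 445 Lum-E/F-like cells at 7.373 and 7.234. Intact Lum-A-like cells of run 2 were at 170.7 CPM of Crabp1, but these sets differ in lobe. The intact cells were mostly of the VP (171 RFP+ and 45 RFP-), whereas 8 of the 49 castrated cells were VP RFP+. Castrated AP RFP- and DLP RFP- luminal cells held 20.41% and 23.81% Lum-A-like cells, against 12.99% and 19.4% in intact mice. The part of the groups in the Crabp1 values was not tested.

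Aldh1a3 stood out in castrated DLP RFP+ luminal cells, a population with no intact counterpart in run 2. It was at 89.02 CPM there (78.0 to 101.2, 235 UMIs in 148 cells), and the single intact DLP RFP+ luminal sum, of run 3, was at 2.901 (9 UMIs). The gates of castrated mice were far apart in the Lum-E/F-like group, with 107.5 CPM in DLP RFP+ (94.09 to 122.2, 232 UMIs in 132 cells), 21.07 in AP RFP+ (15.83 to 27.49, 54 UMIs in 156 cells) and 0.5246 in VP RFP+ cells (1 UMI in 107 cells). The 35 AP RFP- and 15 DLP RFP- cells of the group held 0 UMIs. Over these gates together 82 of 445 cells had a UMI (18.43%, exact 95% interval 14.93% to 22.35%; 6.281% after thinning), the 5 richest holding 127 of 287 UMIs. Basal cells of the same mice had a UMI in 0.3247% of cells. Rdh10 was at 49.25 CPM in the same DLP sum, Crabp1 at 35.23 and Aldh1a1 at 10.23. The pooled lobes of castrated mice in run 1 gave only 11 luminal cells, with 10 UMIs of Rarg and 5 of Rarb.

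The explant library gave 1 pool per day, so days were compared with the size rule only. Clusters of prostatic epithelium (Krt5, Hoxb13) held 470, 473, 1045 and 2045 cells on days 0, 1, 3 and 6, mesonephric-like clusters 198, 100, 92 and 280, and mesenchyme-like cells, of which 22.1% had an Epcam UMI in spite of the EPCAM sort, 28, 71, 24 and 22. Urothelium-like cells numbered 32, 59 and 122 on days 1, 3 and 6. Values follow in the order of days 0, 1, 3 and 6.

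**Figure D5:**
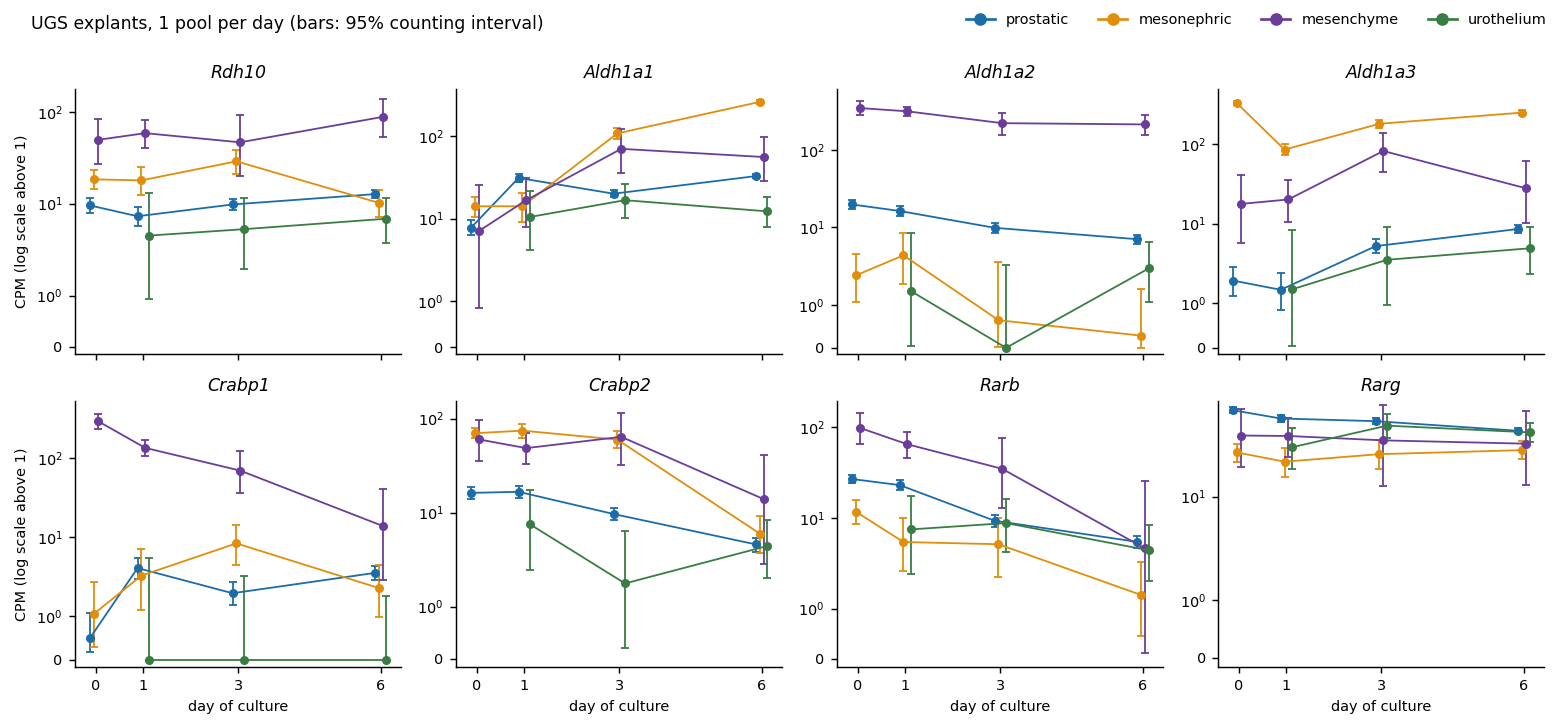
CPM (log scale above 1, linear below) of the 8 retinoid genes by day of culture in 4 cell populations of the UGS explants, 1 pool per day, with 95% Poisson counting intervals. Aldh1a2 and Crabp1 are highest in mesenchyme-like cells on day 0, Aldh1a3 in mesonephric-like cells on every day, and Rarb and Crabp2 of prostatic cells are lower on day 6 than on day 0.

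In prostatic cells the receptor Rarb was lower on day 3 and the carrier Crabp2 on day 6 than on the preceding day sampled, whereas the enzyme Aldh1a1 was higher on day 1 and Aldh1a3 on day 3. Rarb was at 26.93, 23.09, 9.329 and 5.457 CPM, with the step from day 1 to day 3 past the rule (2.48-fold). Crabp2 was at 16.19, 16.63, 9.646 and 4.575 CPM, with the step from day 3 to day 6 past it (2.11-fold). Aldh1a1 was at 7.801, 31.04, 20.03 and 32.71 CPM, 3.98-fold higher on day 1 than on day 0. Aldh1a3 was at 1.929, 1.478, 5.218 and 8.562 CPM, 3.53-fold higher on day 3 than on day 1.

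The days also fell into different prostatic subclusters. Of the 470 cells of day 0, 435 were in 1 subcluster, and 357 of the 473 cells of day 1 in another, while 840 and 550 of the 2045 cells of day 6 were in 2 further subclusters. Only 2 subclusters had at least 10 cells on both day 0 and day 1, and in these Aldh1a1 was at 7.469 against 19.08 CPM (85 and 7 UMIs) and at 21.66 against 35.69 (7 and 321 UMIs), the intervals overlapping. In the 4 subclusters with cells enough on day 1 and day 3 Rarb was at 24.57 against 2.874, 17.21 against 10.68, 14.9 against 9.3 and 11.95 against 11.94 CPM.

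Aldh1a2, at 19.71, 16.26, 9.856 and 7.026 CPM, had no step past the rule although its first and last values differ by more than 2-fold, and Rarg, with 614 to 1321 UMIs a day, was at 68.11, 56.72, 53.45 and 43.17 CPM. Crabp1 was scarce, at 0.5033, 4.064, 1.95 and 3.529 CPM, higher on day 1 (8.08-fold, 6 against 44 UMIs) and lower on day 3 (2.08-fold). All 8 genes had enough UMIs at each step. The calls were 2 higher and 0 lower from day 0 to day 1 (all genes 3.04% and 2.20%), 1 higher and 2 lower from day 1 to day 3 (1.93% and 3.07%), and 0 higher and 1 lower from day 3 to day 6 (1.53% and 2.51%). The median log2 ratio of the 8 genes was -0.243, -0.677 and 0.033 over the 3 steps, and -0.043, -0.078 and -0.037 over all genes.

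Among the other pathway genes of prostatic cells, Tgm2 was at 0.8389, 2.679, 12.65 and 18.66 CPM, past the rule from day 0 to day 1 and again by day 3. Dhrs3, which returns retinaldehyde to retinol and is induced by retinoic acid, was at 164.1, 166.5, 94.19 and 57.87 CPM with no step past the rule. From day 0 to day 1, 6 of 25 with enough UMIs were higher, Stra6, Rbp2, Adh7 and Aldh1a7 among them, and 1 was lower. From day 3 to day 6, 1 was higher and 4 were lower, among them Stra6 and Adh7.

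Within the prostatic cells of all days together, the genes split over 10 subclusters. Crabp2 was at 43.02 CPM and Rarg at 77.39 in the 231 cells of a luminal-like subcluster marked by Krt4 and Psca, where Aldh1a1 was at 19.09. A basal-like subcluster of 875 cells was at 44.37 CPM of Aldh1a1 and 0.2291 of Crabp2, and another of 67 cells was highest in Aldh1a2, at 49.21. Rarb was at 26.64 CPM in an unnamed subcluster of 457 cells, of which 435 were of day 0, so that its level there is largely that of the day, and the 18 cells of day 0 in another subcluster were at 40.23 (21.42 to 68.8). Crabp2 was thus highest in the Krt4 Psca subcluster and lowest in the basal-like subcluster of 875 cells, with 169 and 3 UMIs. The other basal-like subclusters were higher, at 9.352 CPM (118 UMIs in 930 cells) and 13.42 CPM (12 UMIs in 67 cells). Unnamed subclusters of 230 and 510 cells were nearly as low, at 0.3583 and 1.005 CPM.

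Mesonephric-like cells were the main site of Aldh1a3, at 322.9, 84.78, 178.6 and 246.5 CPM, lower from day 0 to day 1 (3.81-fold) and higher by day 3 (2.11-fold). Aldh1a1 was at 14.13, 14.13, 107.3 and 257.9 CPM, with the last 2 steps past the rule (7.59-fold and 2.40-fold). Crabp2 was at 69.86, 74.45, 59.74 and 5.957 and Rdh10 at 18.4, 17.93, 28.91 and 10.21, lower from day 3 to day 6 by 10.03-fold and 2.83-fold. The calls were 1 of 6 genes with enough UMIs (all genes 5.73%), 2 of 5 (5.84%) and 3 of 6 (8.54%), and the median log2 ratios were -0.166, 0.689 and -0.686 over these genes and -0.096, -0.055 and 0.016 over all genes.

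These sums joined clusters that were unequally present over time. A cluster with 225 of its 232 cells on day 6 was, on that day, at 308.8 CPM of Aldh1a1, 275.1 of Aldh1a3 and 1.463 of Crabp2. In the cluster richest in Aldh1a3, present on every day with 106, 32, 36 and 30 cells, Aldh1a3 was at 567.2, 273.6, 508.4 and 278.1 CPM and Aldh1a1 at 21.36, 46.61, 262.1 and 153.4. Neither of these clusters had any of the fixed mesonephric markers among its 10 leading genes, and each detected 6 of the markers. In the third cluster Crabp2 was at 124.4, 92.82, 80.34 and 40.03 and Aldh1a1 at no more than 6.165. The rise of Aldh1a1 between day 1 and day 3 was thus also seen within a single cluster, and its level on day 6 came mostly from the cluster of that day.

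Mesenchyme-like cells held the highest levels of Aldh1a2, the main retinoic acid-producing enzyme of many embryonic mesenchymes, at 346.2, 314.4, 221.0 and 213.0 CPM. Crabp1 was at 296.8, 135.4, 69.78 and 13.89 and Rarb at 98.92, 65.21, 34.89 and 4.63, the last from 1 UMI. Aldh1a1 was at 7.066, 16.72, 69.78 and 55.56 and Aldh1a3 at 17.66, 20.07, 81.41 and 27.78. From day 0 to day 1 Crabp1 was lower (1 of 6 genes, all genes 2.23%), from day 1 to day 3 Aldh1a1 and Aldh1a3 were higher (2 of 8, 3.57%), and 0 of 4 were called from day 3 to day 6 (4.68%). In urothelium-like cells 0 of 2 and 0 of 3 genes were called (5.47% and 2.13%).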

How the data were processed

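Libraries were 10x 3′ with lipid-tagged (MULTI-seq) sample barcodes. The deposited values were raw UMI counts per gene and cell, made by the authors with Cell Ranger. The submitters' processing notes name Cell Ranger 3.1.0, Seurat 3.1.5 and mm10. Cells were given to populations by the study's barcode map. Adult cells had 750 to 7500 genes (the study's methods print the upper limit as UMIs) and under 10% mitochondrial UMIs, explant cells at least 1000 genes and under 7.5%. Clusters were made with Seurat 5.3.0 without the retinoid genes and called by marker lists. Scrublet called 37 cells (0.374%), which was taken as a failed call, so the 6% of cells with the highest scores were removed only as an alternative. UMIs were summed per run and population of at least 10 cells (R 4.3.3, edgeR 4.0.16, TMM, filterByExpr, 1 coefficient per population, 19 residual degrees of freedom, DESeq2 1.42.0 as an alternative). In simulated counts for the AP luminal comparison of 11664 genes, 41 of 100 genes changed 2-fold and 96 of 100 changed 4-fold were called, with 7 unchanged genes.

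Populations of a run came from the same pools and library, so runs pair the samples. Their deviations from the group means correlated with r of 0.057 to 0.547 over 18 pairs. The main fit held no term for run, so its p-values leave this pairing out, and run was added as a block in an alternative. Without replicates, exact Poisson 95% intervals were given. The genes named are the 8 members and, of the other 42, those past a test or the size rule or with a role the members lack, though some genes are not reported here. The members and lists were chosen with earlier results of these data known. Symbols occurring on more than 1 row (35) held no retinoid gene. Alternatives were the replicate block, DESeq2, no filter, other library sizes, only the compared populations, omission of each run, a minimum of 20 cells, doublet scores, clustering with the retinoid genes, an upper limit of 7500 UMIs and a wider epithelial set. Intervals and floors (3 UMIs) cover counting error only.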

Additional observations from a re-analysis of the deposited data

Results flagged for a closer look

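The difference between RFP+ and RFP- luminal cells was itself different in AP and VP for 7 retinoid genes reported here, by the edgeR test of the difference of the log2 effects (AP minus VP). In all, 2 of the 7 tested members and 6 of the 23 other tested pathway genes were called, against 3.46% of all genes. It was 2.25 for Aldh1a1, 2.38 for Rarg and 2.52 for Aldh1a7. Among the other pathway genes it was 6.30 for Stra6, 4.18 for Adh7, 3.31 for Tgm2 and -1.92 for Fabp5. For Stra6 the AP means were 20.91 CPM in RFP+ and 4.351 in RFP- cells, and the VP means 0.1913 and 5.43. For Adh7 they were 6.218 and 2.714 in the AP and 0.2148 and 1.077 in the VP, the last 2 from only 3 and 10 UMIs over the runs. The call of Stra6 held in all 12 alternatives run, and those of Adh7 and Tgm2 turned in direction without run 2. That of Tgm2 also turned, with all runs kept, without the cells of highest Scrublet score (-1.016). The AP gates hold mostly different luminal groups and both VP gates mostly Lum-A-like cells, and the part of these groups in the differences was not tested.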

How the results depend on the processing

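All 31 gene results called without the block on run were also called with it, and the counts of called genes of the 8 under the replicate block moved by over 1.5 times only for AP against DLP (2 against 1, Aldh1a2 being called in addition). In AP luminal cells the 5 calls became 3 with DESeq2, 3 with only the compared populations, 2 with an upper limit of 7500 UMIs, and 2 to 4 when a run was left out. For AP against DLP the 1 call became 2 with no low-count filter and 0 with only the compared populations, with the UMI limit and with a wider epithelial set, and 0 to 1 without a run. The difference of effects had 0 to 2 calls without a run (2 with all), basal against luminal 1 to 4 non-overlapping genes (1 with all), and the 10 castration calls became 2 under the UMI limit. Without run 2 some values reversed, so that over the runs left out the differences of effects ranged from -1.744 to 5.295 for Adh7 and -2.059 to 3.92 for Tgm2. The last was also -1.016 without the cells of highest Scrublet score. The causes were not tested. The UMI limit gave no value for 3 comparisons with VP luminal cells. Over all genes, AP luminal calls went from 2330 to 3510 with the block and 795 to 1952 without a run, VP luminal from 39 to 126 with the block, 227 with no filter, 96 with DESeq2 and 3 to 57 without a run, and RFP+ basal from 36 to 185, 221, 75 and 0 to 31. For AP against VP they went from 1565 to 2279 and 619 to 1310 without a run, for AP against DLP from 145 to 407, 351 with no filter and 12 to 116 without a run, and for the difference of effects from 403 to 1233, 717, 678 with DESeq2 and 15 to 319 without a run. Low counts limit Rarb, Aldh1a3 and Crabp2 in the adult, and castrated and explant values have 1 pool each.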
